A study of Homo sapiens with 9 samples.

Results

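The Notch receptors, their ligands and the HES/HEY target genes were examined as 10 named genes: the receptors NOTCH1, NOTCH2 and NOTCH3, the ligands JAG1, JAG2 and DLL1, the target repressors HES1 and HEY1, the fringe enzyme LFNG and the DNA-binding factor RBPJ. They were picked by name from the 59453 gene names of the count table. All 10 were in the table, and all 10 were among the 16556 genes with enough reads to be tested. RNA was sequenced from the human triple-negative breast cancer line MDA-MB-231, an established line, with 3 libraries from untreated cells, 3 after 8 h and 3 after 24 h with the copper chelator TEPA. The concentration of TEPA was 8 mM in the sample labels and 4 mM in the RNA sequencing methods of the study. No time was given for the untreated flasks, and the same untreated libraries served both comparisons, so time in culture and TEPA cannot be told apart. Only 1 cell line was measured, and nothing in the labels says whether the replicates were separate cultures, so p-values measure the spread between these libraries.

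Notch signalling passes between touching cells. A Jagged or Delta-like ligand on one cell binds a Notch receptor on its neighbour, the receptor is cut by ADAM proteases and then by gamma-secretase, and the freed intracellular part enters the nucleus and joins RBPJ, a DNA-binding protein that otherwise carries corepressors. The complex switches on HES and HEY genes, which encode repressors of transcription, while fringe enzymes add sugars to the receptor and so tune which ligands it answers to. In breast epithelium the pathway is known for its part in cell fate, and several of its receptors and ligands have been studied in breast cancer.

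The libraries held between 34633755 and 49342659 counts, and levels are given below as CPM, counts scaled by library size so that libraries can be compared. The cells carried the markers of a mesenchymal-like line, with 116585 to 177422 counts of vimentin (VIM) and 4276 to 5759 of ZEB1 in every library. Of the genes listed as low or near 0 in this line, PGR and KRT20 were at 0 and ESR1 had 2 to 9 counts. EPCAM had 36 to 71 counts, FOXA1 110 to 182 and GATA3 403 to 721. The luminal marker CDH1 (E-cadherin) had 17 to 33 counts in untreated libraries, 10 to 17 at 8 h and 119 to 144 at 24 h. Its 8 h log2 fold change of -0.84 ± 0.35 missed the threshold (edgeR adjusted p = 0.0543), while DESeq2 called it lower (adjusted p = 0.0404). At 24 h CDH1 rose by 2.33 ± 0.24 in log2 (edgeR adjusted p = 1.06e-06). GATA3 also rose at 24 h, by 0.42 ± 0.07 (adjusted p = 1.72e-04). EPCAM (log2 -0.02, adjusted p = 0.957) and FOXA1 (log2 0.13, adjusted p = 0.379) were not called at 24 h. Of the genes listed as expressed in this line, VIM, CD44 and EGFR were higher at 8 h (log2 0.26, 0.33 and 0.17). KRT18, an epithelial keratin and not a mesenchymal marker, was lower (-0.28). At 24 h VIM, EGFR and KRT18 were lower (log2 -0.12, -0.38 and -0.21). FN1 and ZEB1 were not called against untreated cells at either time. Of 8 blood and endothelial markers, 7 had at most 5 counts in every library. PECAM1, the other one, had 136 to 153 counts in untreated libraries, 34 to 46 at 8 h (log2 -1.76 ± 0.18, adjusted p = 8.90e-07) and 323 to 364 at 24 h (log2 1.18 ± 0.13, adjusted p = 1.91e-06). Mitochondrially encoded genes took 3.61 to 4.02% of counts at 8 h, against 1.79 to 2.91% in untreated and 1.89 to 2.02% in 24 h libraries, and the part of this and of the markers that moved in the results below was not tested. In bulk RNA, fewer cells expressing a gene and less RNA per cell cannot be told apart.

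After 8 h of TEPA, NOTCH1 rose, whereas NOTCH2, NOTCH3, JAG1, HES1 and LFNG fell. After 24 h, NOTCH1 was also lower than in untreated cells, and JAG2 had joined the genes that fell. Of the 10 genes, 1 was higher and 5 were lower at 8 h by edgeR's quasi-likelihood test at a Benjamini-Hochberg adjusted p under 0.05, where 25.2% of all genes tested were higher, 24.5% lower and 49.6% either. At 24 h, 0 were higher and 7 were lower, against 25.7% higher, 26.8% lower and 52.5% either among all genes. DESeq2 also called 0 higher at 24 h, and 1 gene, DLL1, was higher at an unadjusted p under 0.05 in the edgeR test. With a log2 fold limit of 0.5 as well, 0 were higher and 2 lower at 8 h, against 10.1% and 7.67% of all genes (17.8% either). At 24 h this limit left 0 higher and 2 lower, against 10.2% and 8.46% (18.7% either). Libraries of the groups did not overlap for 5 of the 10 at 8 h, 1 higher and 4 lower, against 29.2%, 28.6% and 57.8% in either direction for all genes. At 24 h they did not overlap for 8, 1 higher and 7 lower, against 28.4%, 28.9% and 57.2% in either direction. The median log2 fold change of the 10 genes was -0.15 at 8 h and -0.32 at 24 h, beside -0.00134 and 0.00232 for all genes. Both comparisons share the untreated libraries, so their values are given side by side and not compared further.

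**Figure D1:**
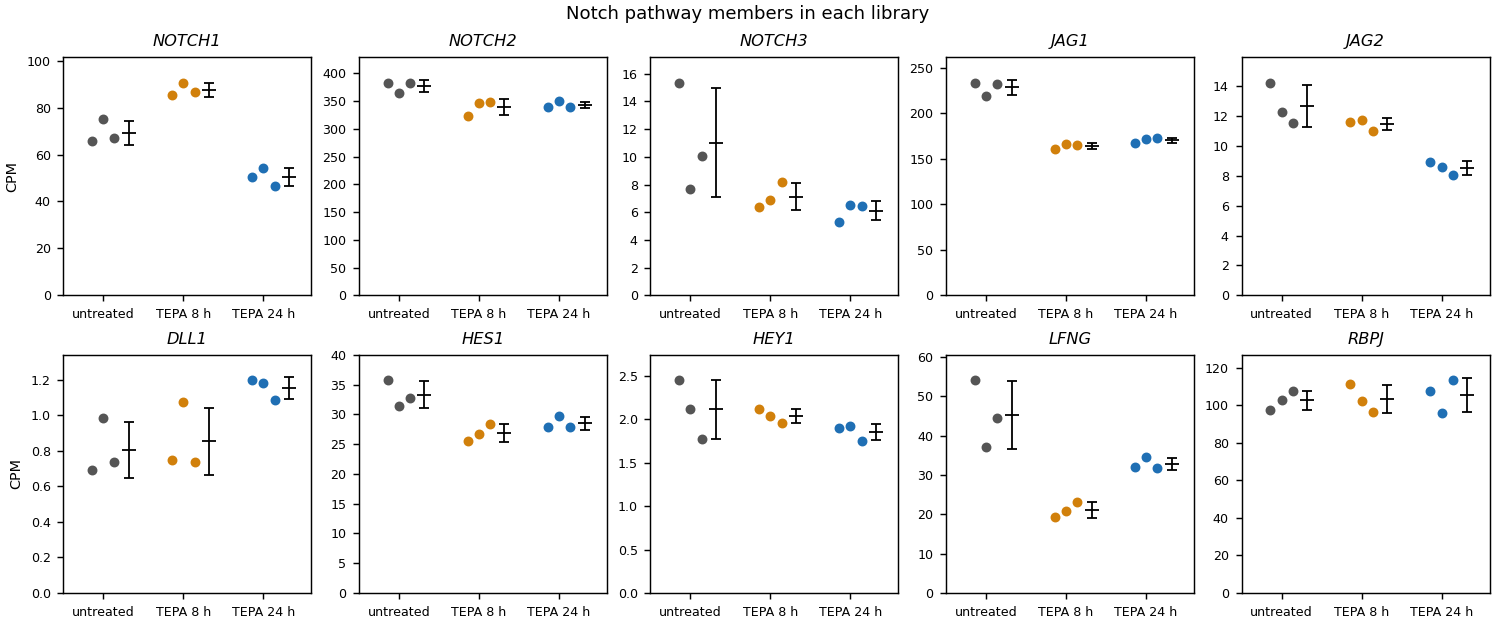
CPM of the 10 Notch genes (vertical axes, linear and starting at 0) in each library, by group (horizontal axes). Each point is 1 library and the bars are the mean ± SD of 3 libraries. NOTCH1 stands at 85.3 to 90.6 at 8 h and 46.4 to 54.3 at 24 h, on either side of the untreated 65.6 to 75.1, and RBPJ overlaps in all groups.

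Levels between genes were compared as CPM per kilobase of exon. In untreated cells the ligand JAG1 had the highest level of the 10, at 24.6 ± 0.862 CPM per kb (SD, n = 3), followed by NOTCH2 at 22.5 ± 0.606, and their ranges did not overlap. HES1 at 16.2 ± 1.08 and LFNG at 13.2 ± 2.48 came next, and their ranges overlapped. RBPJ stood at 6.70 ± 0.327 and NOTCH1 at 5.53 ± 0.404, with no overlap between them. With the longest transcript as length in place of all exons, RBPJ was at 17.8 and LFNG at 18.5 CPM per kb, so the place of RBPJ beside NOTCH1 depends on the length used. JAG2 at 1.98 ± 0.218 and NOTCH3 at 1.17 ± 0.418 were lower, also without overlap. HEY1, at 0.386 ± 0.0618, and DLL1, at 0.211 ± 0.0413 CPM per kb, were the lowest, which placed them above 15.8% and 10.4% of the 14580 genes with a length. JAG1 lay above 86.5% of these genes on the same scale.

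NOTCH1 encodes a receptor known for its mutations in T-cell leukaemia, and lies at chr9:136494433-136546048 on the minus strand (hg38). In untreated cells it was measured at 65.6, 75.1 and 67.3 CPM, at 8 h at 85.3, 90.6 and 86.5 CPM, and at 24 h at 50.4, 54.3 and 46.4 CPM. Every 8 h library was above, and every 24 h library below, all untreated ones. The rise at 8 h was 26.1%, a log2 fold change of 0.33 ± 0.06 (SE, adjusted p = 1.99e-04). By 24 h NOTCH1 fell by 27.3% against untreated cells, a log2 fold change of -0.46 ± 0.06 (adjusted p = 9.05e-06). Between 8 h and 24 h the log2 difference was -0.80 ± 0.06 (adjusted p = 2.42e-08).

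NOTCH2, at chr1:119911553-120100779 on the minus strand, had the most reads of the receptors. Its level was 383, 365 and 383 CPM in untreated cells, 322, 346 and 348 CPM at 8 h, and 340, 350 and 339 CPM at 24 h. The TEPA libraries lay below all untreated ones at both times, but the difference was small. NOTCH2 fell by 10.1% at 8 h (log2 fold change -0.15 ± 0.04, adjusted p = 0.00351) and by 9.03% at 24 h (log2 fold change -0.14 ± 0.04, adjusted p = 0.00708). NOTCH2NL genes are near-identical copies of its first exons, so NOTCH2 counts are uncertain to the extent that reads from these exons were split or dropped. NOTCH2NLC, the copy with the most reads, had 32 to 44 counts per library.

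NOTCH3, the receptor known for its role in vascular smooth muscle, lies at chr19:15159038-15200995 on the minus strand. It was at 15.4, 7.68 and 10.0 CPM in untreated cells, at 6.35, 6.85 and 8.19 CPM at 8 h, and at 5.32, 6.56 and 6.48 CPM at 24 h. Untreated replicate 1 was far above the other 8 libraries, and the 8 h range overlapped the untreated one. The 8 h log2 fold change was -0.62 ± 0.19 (adjusted p = 0.0115). It was -0.31 (adjusted p = 0.0538) when untreated replicate 1 was left out, and -0.55 (adjusted p = 0.0520) when TEPA 8 h replicate 1 was left out, so the 8 h call depends on single libraries. At 24 h all libraries were below the untreated ones, and NOTCH3 fell (log2 fold change -0.85 ± 0.19, adjusted p = 0.00129), with a value of -0.54 without untreated replicate 1 that still passed.

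NOTCH2 made up most of the receptor RNA per kilobase in every group. Its share of the 3 receptors was 77.1 ± 0.913% (SD, n = 3) in untreated cells, 72.3 ± 0.403% at 8 h and 81.5 ± 0.807% at 24 h. NOTCH1 held 19.0 ± 1.75%, 25.0 ± 0.696% and 16.0 ± 0.870%. The ranges of the NOTCH2 share did not overlap between any of the groups. NOTCH3 held 3.99 ± 1.35% in untreated cells, with a range of 2.85 to 5.48%. Its share was 2.52 to 3.05% at 8 h, which overlapped the untreated range, and 2.27 to 2.79% at 24 h.

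JAG1, the ligand mutated in Alagille syndrome, lies at chr20:10637684-10673999 on the minus strand. Untreated libraries held 234, 219 and 233 CPM, those at 8 h 161, 167 and 166 CPM, and those at 24 h 168, 172 and 173 CPM. The untreated libraries were separate from all 6 TEPA libraries. JAG1 fell by 28.0% at 8 h (log2 fold change -0.47 ± 0.04, adjusted p = 7.43e-08) and by 25.4% at 24 h (log2 fold change -0.42 ± 0.04, adjusted p = 1.35e-07). The 24 h libraries were slightly above those at 8 h, with a log2 difference of 0.05 ± 0.04 that missed the threshold (adjusted p = 0.244).

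JAG2, the second Jagged ligand, at chr14:105140982-105168824 on the minus strand, had less RNA. It was measured at 14.2, 12.3 and 11.5 CPM in untreated cells, at 11.6, 11.8 and 11.0 CPM at 8 h, and at 8.93, 8.62 and 8.04 CPM at 24 h. Untreated and 8 h libraries overlapped, and the log2 fold change of -0.14 ± 0.08 missed the threshold (adjusted p = 0.165). The 24 h libraries were below all others, and JAG2 fell by 32.5% against untreated cells (log2 fold change -0.57 ± 0.08, adjusted p = 3.77e-05). GENCODE places 469 of its exon bases on those of a noncoding RNA on the same strand, so its counts may include or lack reads from there.

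DLL1, a Delta-like ligand at chr6:170282206-170306565 on the minus strand, had the lowest counts of the 10 genes, 26 to 61 per library. Its level was 0.693, 0.985 and 0.735 CPM in untreated cells, 0.750, 1.07 and 0.735 CPM at 8 h, and 1.20, 1.18 and 1.08 CPM at 24 h. All 24 h libraries were above all others. The log2 fold change at 24 h was 0.51 ± 0.22 and missed the threshold (adjusted p = 0.0619), and without untreated replicate 2 it was 0.69 and passed (adjusted p = 0.0320). At 8 h it was 0.07 ± 0.23 (adjusted p = 0.822). Of the ligand RNA per kilobase JAG1 held 91.8 ± 0.705%, 89.8 ± 0.473% and 91.8 ± 0.502% in untreated, 8 h and 24 h cells, and DLL1 held 0.791 ± 0.184%, 1.13 ± 0.234% and 1.51 ± 0.0906%.

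**Figure D2:**
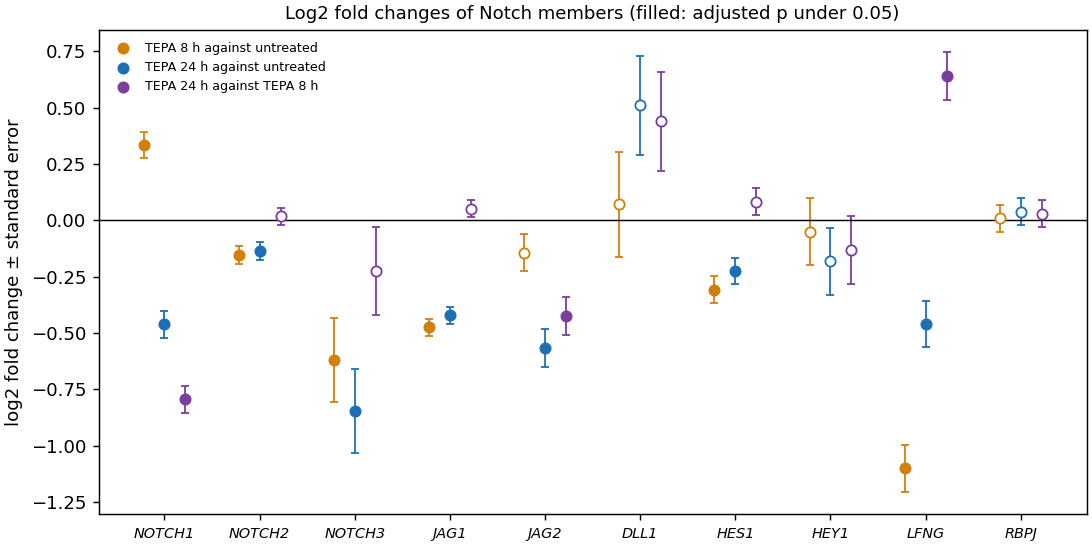
Log2 fold change (vertical axis) of each of the 10 Notch genes (horizontal axis) in each comparison, with bars of 1 SE from the edgeR fit over 3 libraries per group and filled points at an adjusted p under 0.05. LFNG at 8 h (-1.10) and NOTCH3 at 24 h (-0.85) lie farthest from 0 among the comparisons with untreated cells, and NOTCH1 is on opposite sides of 0 at 8 h and 24 h.

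HES1 encodes a repressor that is the usual readout of Notch activity, and lies at chr3:194136148-194138732 on the plus strand. Its promoter, the 250 bases before the transcription start at chr3:194135898-194136147 on the plus strand of GRCh38.p14 from RefSeq, is shown because it holds a pair of matches to TGGGAA, the core letters that RBPJ is known to bind. The matches, in capitals, start 84 and 70 bases before the start.
HES1 promoter: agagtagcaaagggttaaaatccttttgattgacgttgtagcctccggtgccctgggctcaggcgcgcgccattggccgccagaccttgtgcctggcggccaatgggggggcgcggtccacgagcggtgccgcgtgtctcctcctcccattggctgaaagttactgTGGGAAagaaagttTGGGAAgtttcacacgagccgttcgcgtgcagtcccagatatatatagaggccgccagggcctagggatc
On either strand, TGGGAA was found in 20.8% of 35116 promoter windows of this length. A match of these letters is a description and not a binding site. Among the other members, it was in 1 of 2 LFNG and 1 of 5 RBPJ promoters, and not in those of NOTCH1, NOTCH2, NOTCH3, JAG1 or JAG2. No promoter was found for DLL1 or HEY1, so these were not searched.

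HES1 was at 35.8, 31.4 and 32.8 CPM in untreated cells, at 25.5, 26.7 and 28.4 CPM at 8 h, and at 27.9, 29.7 and 27.8 CPM at 24 h. All 6 TEPA libraries were below the untreated ones. HES1 fell by 19.2% at 8 h (log2 fold change -0.31 ± 0.06, adjusted p = 5.38e-04) and by 14.4% at 24 h (log2 fold change -0.22 ± 0.06, adjusted p = 0.00482). The 8 h and 24 h ranges overlapped, with a log2 difference of 0.08 ± 0.06 (adjusted p = 0.259).

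HEY1, a related repressor at chr8:79762371-79767857 on the minus strand, had 63 to 97 counts per library. It was at 2.45, 2.12 and 1.78 CPM in untreated cells, at 2.12, 2.04 and 1.96 CPM at 8 h, and at 1.90, 1.92 and 1.75 CPM at 24 h. Both TEPA ranges overlapped the untreated one. Neither its 8 h value (log2 -0.05 ± 0.15, adjusted p = 0.804) nor its 24 h value (log2 -0.18 ± 0.15, adjusted p = 0.331) passed the test, and with so few reads their errors were larger than those of HES1.

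LFNG, a fringe glycosyltransferase that extends O-fucose on Notch receptors, at chr7:2512529-2529177 on the plus strand, had the largest fold change of the 10 genes. Its level was 54.1, 37.1 and 44.6 CPM in untreated cells, 19.2, 20.9 and 23.2 CPM at 8 h, and 32.1, 34.7 and 31.7 CPM at 24 h. The 3 groups did not overlap, with 8 h lowest and 24 h between 8 h and untreated. LFNG fell by 53.4% at 8 h (log2 fold change -1.10 ± 0.11, adjusted p = 5.86e-07) and by 27.3% at 24 h (log2 fold change -0.46 ± 0.10, adjusted p = 0.00119). From 8 h to 24 h it rose, with a log2 difference of 0.64 ± 0.11 (adjusted p = 1.02e-04). As single libraries were left out, the 24 h log2 fold change against untreated cells ran from -0.59 to -0.31 and stayed called.

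RBPJ, the DNA-binding factor shared by all Notch receptors, at chr4:26163455-26435131 on the plus strand, passed no test. It was at 97.5, 103 and 108 CPM in untreated cells, at 111, 102 and 96.5 CPM at 8 h, and at 107, 95.8 and 113 CPM at 24 h. The ranges of all groups overlapped, and its pseudogenes in the table had at most 1 count in any library. RBPJ differed from untreated cells by 0.01 ± 0.06 in log2 after 8 h (adjusted p = 0.919) and by 0.04 ± 0.06 after 24 h (adjusted p = 0.623).

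Set directly against 8 h, 1 of the 10 genes was higher at 24 h and 2 were lower, where 26.0% of all genes were higher, 28.8% lower and 54.8% either. The fold limit left 1 higher and 1 lower, against 10.4% and 10.8% (21.2% either). The libraries did not overlap for 3 higher and 3 lower genes, against 29.6%, 32.4% and 62.0% in either direction. The gene that was higher was LFNG, and those that were lower were NOTCH1 and JAG2. For JAG2 the log2 difference was -0.42 ± 0.09 (adjusted p = 5.69e-04). NOTCH2 differed by 0.02 ± 0.04 (adjusted p = 0.726) and NOTCH3 by -0.23 ± 0.20 (adjusted p = 0.349) on the log2 scale.

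The rest of the pathway was taken from lists of 65 genes, of which 58 had enough reads to be tested. At 8 h 17 were higher and 23 lower, where 25.2% and 24.5% of all genes were. At 24 h 12 were higher and 22 lower, where 25.7% and 26.8% of all genes were. In either direction 49.6% of all genes were called at 8 h and 52.5% at 24 h, and the counts by role below stand against these shares. The median of their log2 fold changes stood at -0.12 for 8 h and -0.05 for 24 h.

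Among the other enzymes that modify the receptor, MFNG, a second fringe, went the other way from LFNG. It was at 4.75, 5.98 and 5.60 CPM in untreated cells, at 11.5, 11.4 and 11.8 CPM at 8 h, and at 8.98, 8.94 and 8.81 CPM at 24 h. No groups overlapped. MFNG rose by 1.08 ± 0.09 in log2 after 8 h (adjusted p = 9.49e-08) and was still above untreated cells after 24 h, by 0.71 ± 0.09 (adjusted p = 5.80e-06). RFNG, the third fringe, rose at 8 h by 0.24 ± 0.05 and fell at 24 h by 0.25 on the log2 scale (adjusted p = 0.00156 and 0.00101). POFUT1, which adds the O-fucose that fringes extend, fell at 24 h (log2 -0.73 ± 0.04, adjusted p = 4.37e-10), while its 8 h value of -0.09 ± 0.04 just missed the threshold (adjusted p = 0.0503). POGLUT1, an O-glucosyltransferase of the receptor, fell at both times, by 0.40 and 0.31 on the log2 scale. Of the receptors and ligands outside the 10, DLL3 and DLL4 had at most 11 counts in any library and were not tested, and NOTCH4 had 11 to 37.

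**Figure D3:**
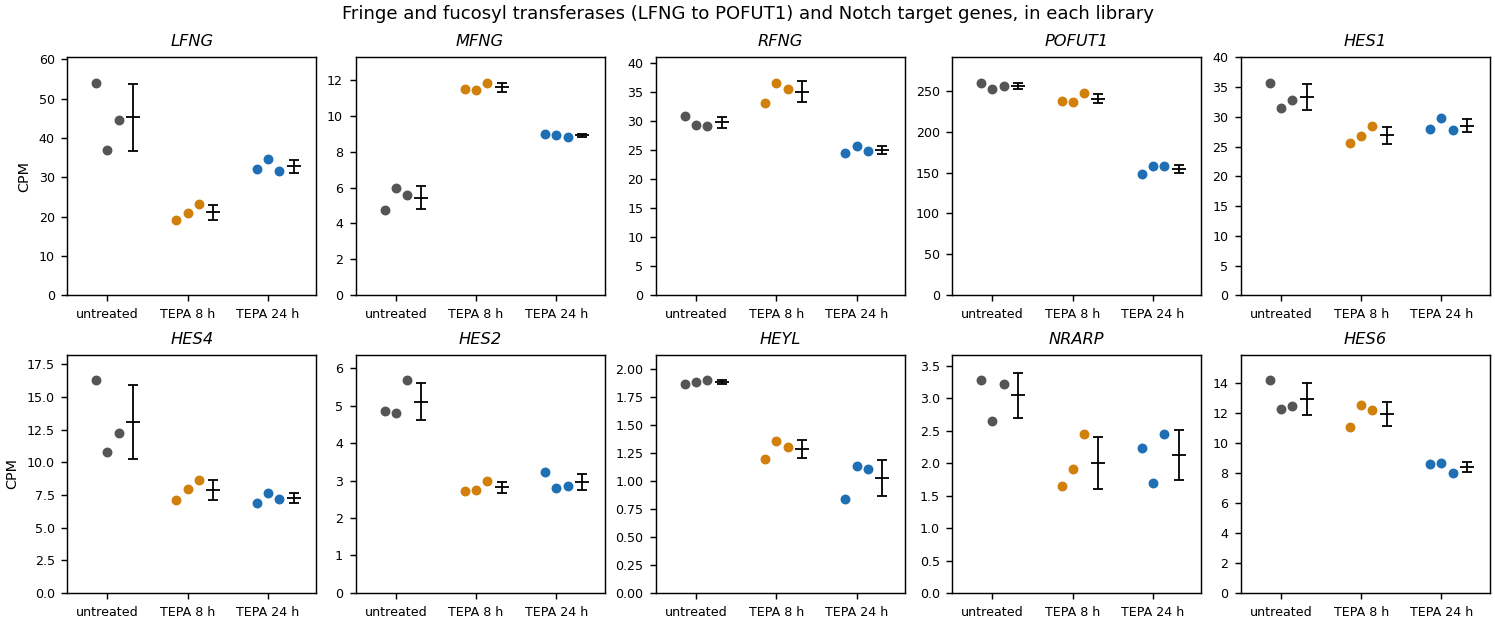
CPM of the receptor-modifying enzymes LFNG, MFNG, RFNG and POFUT1 and of the target genes HES1, HES4, HES2, HEYL, NRARP and HES6 (vertical axes, linear and starting at 0) in each library, by group. Each point is 1 library and the bars are the mean ± SD of 3 libraries. MFNG rises from at most 5.98 CPM in untreated cells to at least 11.4 at 8 h, while LFNG drops from at least 37.1 to at most 23.2.

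Among the other HES, HEY and feedback genes, 9 were listed and 7 tested. Of these, 0 were higher at 8 h and 4 lower, and 0 were higher at 24 h and 5 lower, where 24.5% and 26.8% of all genes were lower, and the medians of their log2 fold changes were -0.55 and -0.78. None of the 7 was higher at an unadjusted p under 0.05 or by DESeq2 at either time. HES4, a HES1-like repressor, was at 16.3, 10.8 and 12.2 CPM in untreated cells, at 7.10, 7.97 and 8.63 CPM at 8 h, and at 6.92, 7.64 and 7.23 CPM at 24 h. All TEPA libraries were below the untreated ones, and HES4 fell after 8 h (log2 -0.72 ± 0.13, adjusted p = 1.87e-04) and after 24 h (log2 -0.85 ± 0.13, adjusted p = 3.59e-05). As single libraries were left out, its 8 h value ran from -0.86 to -0.54 and stayed called. HES2 also fell at both times, by 0.86 and 0.78 on the log2 scale (adjusted p = 1.84e-05 and 2.94e-05). HES6, which is known to oppose HES1, fell at 24 h (log2 -0.62 ± 0.08, adjusted p = 1.00e-05), and its 8 h value of -0.12 ± 0.08 missed the threshold.

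HEYL and NRARP, named after their values were seen, had few reads, 40 to 86 and 66 to 127 counts per library. HEYL fell by 0.55 on the log2 scale at 8 h (adjusted p = 0.0140) and by 0.88 at 24 h (adjusted p = 4.87e-04). NRARP, a feedback inhibitor of the Notch complex, fell by 0.61 at 8 h (adjusted p = 0.00881) and by 0.52 at 24 h (adjusted p = 0.0171), and the 24 h call was lost without untreated replicate 3 or TEPA 24 h replicate 2, down to a log2 fold change of -0.38. HES7, with 14 to 42 counts, differed in log2 by -0.06 after 8 h and by -0.26 after 24 h, HEY2 had 6 to 24 counts, and neither passed the test. HES5 and DTX1 had at most 6 counts in any library and were not tested.

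The windows around TGGGAA in the promoters of HES4 and HEYL, which fell, and of HES5, which had at most 1 count, are shown for comparison with HES1. They are from RefSeq GRCh38.p14, on the minus strand and read with the gene, with the match in capitals.
HES4 chr1:1000156-1000185: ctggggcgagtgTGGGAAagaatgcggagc
HEYL chr1:39639725-39639754: aggaaagggcccTGGGAAagggcggtggcg
HES5 chr1:2530326-2530355: ggccgcggagtgTGGGAAcggccgcggcgc
These matches began 76, 99 and 80 bases before the RefSeq start. In GENCODE, 75 bases of the HES4 promoter window are annotated as exon, and its match reaches into them. The promoters of HEYL and HES5 also held a second match, on the other strand, 178 and 224 bases before the start, which is not shown. The promoters of HES2, HES6 and NRARP, which fell at 24 h, held none on either strand. The HEY2 promoter held 1 match, on the other strand, 213 bases before the start. HEY2 was not called at either time (24 h log2 -0.83, adjusted p = 0.0592). The promoter of HES7, which was not called either, held none.

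Receptor cleavage genes were mixed, with 2 higher and 5 lower of 9 at 8 h, where 49.6% of all genes were called, and 2 higher and 2 lower at 24 h, where 52.5% were. APH1B and PSENEN, both gamma-secretase subunits, fell at 8 h by 0.70 and 0.45 on the log2 scale (adjusted p = 3.38e-06 and 7.44e-05), and PSENEN shares 285 of its 1359 exon bases with another gene on the same strand in GENCODE, which makes its counts uncertain. ADAM10, the protease of the first cut, fell at 8 h (log2 -0.38 ± 0.04, adjusted p = 3.96e-06) and was at -0.04 ± 0.04 at 24 h (adjusted p = 0.492). PSEN2, a catalytic subunit, rose at 8 h (log2 0.79 ± 0.13, adjusted p = 1.23e-04), and it shares 6342 exon bases with another gene on the same strand in GENCODE, so its counts are uncertain.

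Of 13 genes tested for ligand endocytosis and receptor turnover, 6 were higher and 4 lower at 8 h, and 4 higher and 5 lower at 24 h. MIB2, a ubiquitin ligase of Notch ligands, rose by 0.57 ± 0.06 in log2 after 8 h and by 0.56 ± 0.06 after 24 h. NEURL1B, of the Neuralized family of ligand ubiquitin ligases, rose at 8 h (0.38 ± 0.06) and fell at 24 h (-0.46 ± 0.06). DTX3L, of the Deltex family, fell at 8 h (-0.59 ± 0.04) and rose at 24 h (0.25 ± 0.04). DLK2, a noncanonical ligand, fell at 24 h (log2 -0.48 ± 0.14, adjusted p = 0.0113), a call lost without TEPA 24 h replicate 2 (log2 -0.40, adjusted p = 0.0509).

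Nuclear coactivators had 5 higher and 1 lower of 10 at 8 h, and 2 higher and 1 lower at 24 h. The acetyltransferase KAT2A rose by 0.69 ± 0.05 in log2 after 8 h and by 0.47 ± 0.05 after 24 h, from counts that are uncertain over 405 exon bases shared with another gene on the same strand. CREBBP and EP300, acetyltransferases of the Notch complex, rose at 8 h by 0.35 ± 0.06 and 0.21 ± 0.05 on the log2 scale, and KAT2B fell (-0.41 ± 0.05). Of 14 corepressors tested, 2 were higher and 8 lower at 8 h, and 3 higher and 6 lower at 24 h. CTBP1, TLE3 and L3MBTL3 fell at both times, at 24 h by 0.54, 0.18 and 0.66 on the log2 scale.

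**Figure D4:**
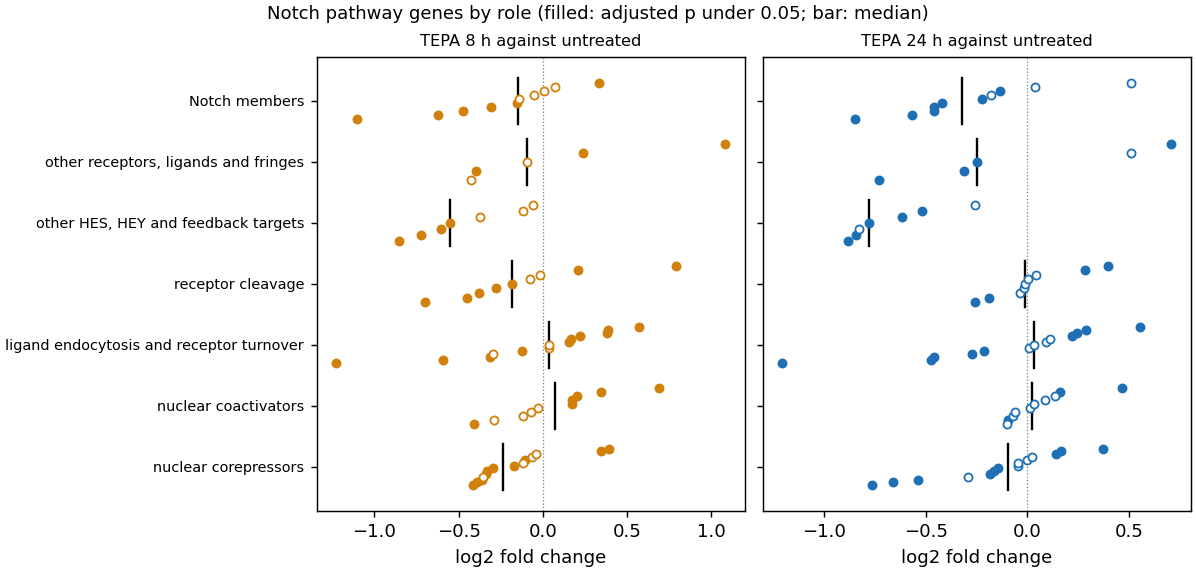
Log2 fold change (horizontal axis) of the tested Notch pathway genes by role (vertical axis) in the comparisons with untreated cells, each point being 1 gene from the edgeR fit, filled at an adjusted p under 0.05, with a bar at the median of each role. The other HES, HEY and feedback genes have a median of -0.55 at 8 h and -0.78 at 24 h.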

How the data were processed

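RNA-Seq of MDA-MB-231 cells was performed by the study from stranded mRNA libraries. Per the study's methods and the labels, FastQC served the authors for read quality and HISAT2 for alignment to hg38, and featureCounts then gave stranded counts of read pairs on the exons of each gene name. The deposited values are raw counts without normalization, 1 column per replicate, for 59453 gene names, and 0 columns were left out. The 10 genes and all gene lists were chosen with earlier results of these data known.

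Counts were analysed with edgeR 4.0.16 in R 4.3.3. The filterByExpr function (minimum count 10) chose the genes tested, library sizes were scaled by TMM (factors 0.978 to 1.039), and all 9 libraries entered 1 quasi-likelihood fit. The Benjamini-Hochberg adjustment covered all 16556 genes tested, and each SE came from the log2 fold change and its F statistic (its size over the root of F). No replicates were duplicates of each other. Untreated replicates 1 and 2 differed most, with a chi-square of counts per degree of freedom of 20.6, against 2.36 to 7.40 within the TEPA groups. Among the 10 genes, untreated replicate 1 was the highest untreated library for NOTCH2, NOTCH3, JAG1, JAG2, HES1, HEY1 and LFNG. It was the lowest for NOTCH1, DLL1 and RBPJ. With 3 against 3, an exact permutation test cannot go below 0.1, so none was used. Lengths and positions are from GENCODE 44 on hg38, and promoters from RefSeq, found for 68 of 86 genes looked up. Counting error is the least error of a value. The genes named are the 10 members and, from each other list, up to 4 that passed the test in a TEPA comparison with a mean of at least 100 counts, ranked by fold change. A gene picked by this rule is not reported here. NOTCH4, HEY2, HES7, HEYL and NRARP were added after their values were seen. Marker genes are named for the check of the cells, and DLL3, DLL4, HES5 and DTX1 are named as not tested. The procedure was run on simulated counts with few genes changed, unlike these data, so that run does not check the calls made here. Alternatives were DESeq2 1.42.0, RLE or upper-quartile scaling, other filters, a log2 fold limit of 0.5, only the 2 groups compared, a replicate block, each library left out, and the longest transcript as length.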

Additional observations from a re-analysis of the deposited data

Results flagged for a closer look

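Effects of TEPA that differed between 8 h and 24 h were found by the direct edgeR test of 24 h against 8 h, given here as log2 differences. Among the 10 genes they were -0.80 for NOTCH1, -0.42 for JAG2 and 0.64 for LFNG. Among receptor-modifying enzymes they were -0.38 for MFNG, -0.49 for RFNG and -0.64 for POFUT1. HES6 differed by -0.50. NOTCH4 differed by 0.93, from 11 to 37 counts per library, and without TEPA 8 h replicate 2 it was 0.81 and not called (adjusted p = 0.0506). It shares 98 exon bases with another gene on the same strand in GENCODE, so its counts are uncertain. Among cleavage genes the differences were 0.34 for ADAM10, -0.40 for PSEN2, 0.44 for APH1B and 0.26 for PSENEN. Among turnover genes they were -0.85 for NEURL1B and 0.84 for DTX3L. Coactivators differed by -0.27 for EP300, -0.19 for CREBBP, -0.22 for KAT2A and 0.44 for KAT2B. Corepressors differed by -0.21 for CTBP1, 0.23 for TLE3 and -0.30 for L3MBTL3. The markers CDH1, GATA3 and PECAM1 differed by 3.17, 0.30 and 2.94. Single libraries decided some of these calls. CREBBP was not called without TEPA 8 h replicate 2 or 3 or TEPA 24 h replicate 3 (-0.16 to -0.14). PSEN2 was not called without TEPA 8 h replicate 3 or TEPA 24 h replicate 1 (both about -0.35). L3MBTL3 was not called without replicate 2 or 3 of either time (-0.30 to -0.25) or with DESeq2 (-0.28). Groups of 3 libraries were not tested for outlying values.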

How the results depend on the processing

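With a log2 fold limit of 0.5, the 10 genes had 0 higher and 2 lower at 8 h, 0 and 2 at 24 h, and 1 and 1 at 24 h against 8 h. The other pathway genes then had 4 higher and 7 lower, 2 and 10, and 2 and 4, and all genes 1673 and 1270, 1695 and 1400, and 1716 and 1789. DLL1 passed at 24 h with upper-quartile factors or with 10 counts in every library, which gave 1 higher gene, and JAG1 passed from 8 h to 24 h with only those 2 groups fitted, which gave 2. As each library was left out, the number higher was 0 to 1 at 24 h and 1 to 2 from 8 h to 24 h, and the number lower at 8 h was 4 to 5, NOTCH3 being the call lost. Direction turned for RBPJ at 8 h without a filter (-0.00383) and for MIB2 from 8 h to 24 h with only those groups (0.013). Leaving out single libraries also turned direction, in log2 fold changes that passed no test. These ran from -0.13 to 0.25 for DLL1, -0.17 to 0.0596 for HEY1, -0.0523 to 0.0487 for RBPJ and -0.42 to 0.18 for HES7 at 8 h. At 24 h they ran from -0.0142 to 0.10 for RBPJ and -0.62 to 0.0560 for HES7. From 8 h to 24 h they ran from -0.0215 to 0.0959 for RBPJ, -0.0133 to 0.0424 for NOTCH2, -0.0558 to 0.0323 for MIB2, -0.0346 to 0.26 for NRARP and -0.47 to 0.12 for HES7. Outside the 10 genes, calls at 24 h were lost without untreated replicate 1 or 3 or TEPA 24 h replicate 1 or 2 for CREBBP (0.0813 to 0.19), without untreated replicate 1 or 3 or TEPA 24 h replicate 2 or 3 for PSEN2 (0.31 to 0.38), and without untreated replicate 3 or TEPA 24 h replicate 1 or 2 for PSENEN (-0.18 to -0.14). PSENEN also lost its 24 h call with upper-quartile factors and DESeq2, and POFUT1 gained one at 8 h with RLE factors, DESeq2, no filter or only the 2 groups. The marker CDH1 gained a call as lower at 8 h with DESeq2 or no filter, or without untreated replicate 3 or TEPA 8 h replicate 3 (-1.09 to -0.85). With the longest transcript as length, untreated levels were 7.04 CPM per kb for NOTCH1, 33.0 for NOTCH2, 38.5 for JAG1, 21.2 for HES1, 0.546 for HEY1, 18.5 for LFNG and 17.8 for RBPJ. NOTCH2 then held 79.9%, 75.4% and 83.8% of receptor RNA and JAG1 94.1%, 92.6% and 94.2% of ligand RNA in untreated, 8 h and 24 h cells. The cause of these shifts was not tested beyond the changed lengths, genes or libraries themselves.

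The replicate block gave 1 higher and 5 lower of the 10 genes at 8 h, 0 and 7 at 24 h, and 1 and 2 from 8 h to 24 h, and changed no call of a named gene. Deviations of libraries with the same number correlated at -0.080 to 0.038, so no pairing by number was seen in the counts. The labels do not say whether libraries of the same number were handled together. No setting moved the median log2 fold change of all genes by over 0.1. Depth limits DLL1, HEY1, HEYL, HEY2, HES7 and NOTCH4 most, with under 100 counts in every library.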

Other observations

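For the member of each role with the most reads, the genes closest in log2 CPM over the 9 libraries were sought among 9608 genes of at least 10 CPM. These libraries form 3 groups, so r describes these 9 points and carries no p. For NOTCH2 they were SOX13 (Pearson r = 0.983), TULP3 (0.981) and CLDN4 (0.974). For JAG1 they were CALR (0.996), TOR1A (0.995) and CREB3L2 (0.995). For HES1 they were SLC22A18 (0.996), PIGS (0.994) and STARD10 (0.991). For RBPJ they were ARPP19 (0.980), LYPLA1 (0.949) and KIAA1586 (0.934). RBPJ overlapped between all groups and passed no test, so its r values do not rest on a difference between groups.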
